A study of Mus musculus with 4 samples.

Results

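Laminin chains were followed in sorted cells of the cultured embryonic mouse kidney, as the 9 chain genes Lama1, Lama2, Lama3, Lama4, Lama5, Lamb1, Lamb2, Lamb3 and Lamc1, taken by symbol from 18820 genes with an array probe set of their own. Each of the 9 had 1 such probe set. The mice were B6.129P2-Lgr5tm1(cre/ERT2)Cle/J animals, in which a cassette of EGFP and CreERT2 joined by an internal ribosome entry site sits in the Lgr5 gene, so that green fluorescence reports Lgr5 transcription. All 4 samples carried this allele; the labels do not say whether in 1 or both copies. Kidneys were taken at about day 14 of gestation, cultured for about 10 days, picked by fluorescence, dissociated and sorted. The GFP-high fraction, labelled positive in the sample titles (2 Affymetrix arrays, kidneys A and B by their titles) was compared with the GFP-negative fraction (2 arrays, kidneys B and D). The arrays are called high A, high B, negative B and negative D here, and values are given in that order. No drug or inducing agent is named for either fraction. The labels do not say what a kidney letter stands for or whether kidneys were pooled, so a p-value here reflects the scatter among the 4 arrays alone, and that scatter may be technical.

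Laminins are the cross-shaped glycoproteins from which basement membranes are built, and each molecule is a coiled-coil trimer of 1 alpha, 1 beta and 1 gamma chain. The alpha chain carries the globular end that integrins and dystroglycan bind, the beta and gamma chains complete the coil, and a short arm on the gamma chain encoded by Lamc1 binds nidogen. In the developing kidney the chain made first at the base of new tubules is the product of Lama1, while glomeruli, vessels and stroma use other alpha chains.

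In GFP-high cells Lama1 was 3.77-fold higher and its usual partners Lamb1 and Lamc1 were 1.77-fold and 1.78-fold higher than in GFP-negative cells. Lama2 and Lama4, alpha chains of mesenchymal, muscle and vessel basement membranes, were 11.1-fold and 14.2-fold lower. Lama5 and Lamb2 did not pass the test, and Lama3 and Lamb3 lay close to background in both fractions. In all, 3 of the 9 genes were higher and 2 lower at an adjusted p below 0.05 (limma, Benjamini-Hochberg over all 18820 genes), where 8.08% of all genes were higher and 11.2% lower, 19.2% together. The median log2 difference of the 9 was 0.040, GFP-high minus GFP-negative, and that of all genes 0.051. The arrays of the fractions did not overlap for 6 of the 9 genes, where the share over all genes was 57.3%, so this count does not set the chains apart.

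**Figure D1:**
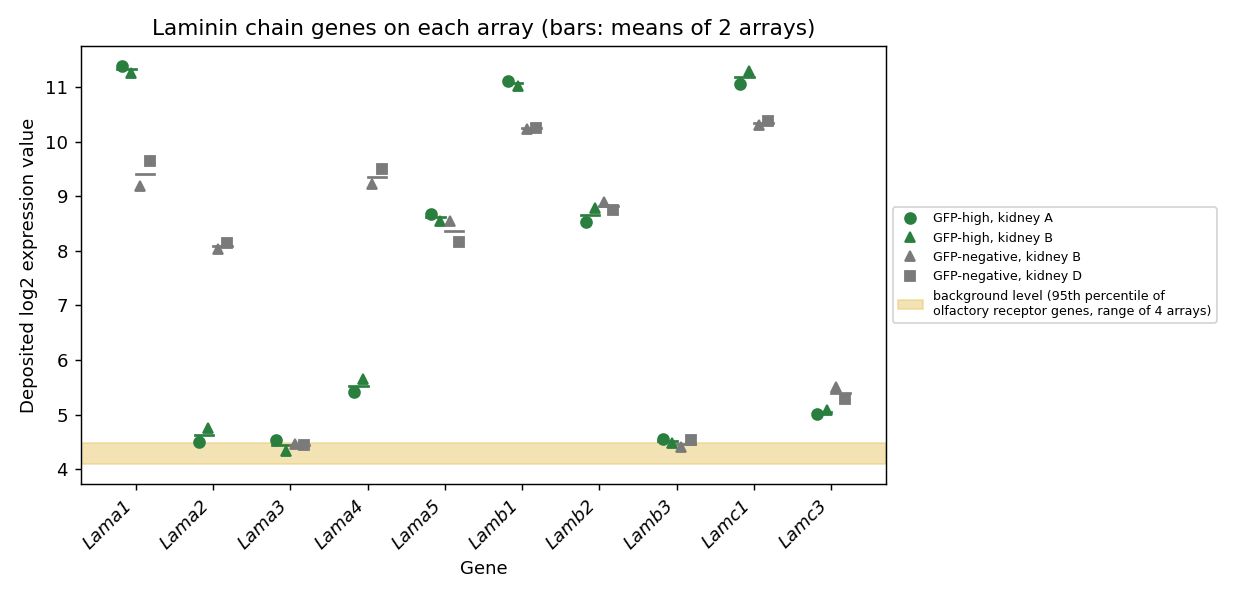
Deposited log2 expression value of the 9 laminin chain genes and Lamc3 on each of the 4 arrays, with short bars at the mean of each fraction and a band for the background level. Lama1, Lamb1 and Lamc1 stand higher in both GFP-high arrays, and Lama2 and Lama4 stand lower. Lama3 and Lamb3 lie within the band or just above it on all 4 arrays.

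Promoter sequence was read from the RefSeq-derived table (GRCm38.p6) for 5 of the 9 genes, Lama2, Lama5, Lamb1, Lamb2 and Lamb3. The search found no window of the other members. It skipped a chromosome, so for any member that lies there, whether the table held a window was not established. Of the beta chain genes, Lamb1 and Lamb2 are shown. Lamb1 rose, and Lamb2, whose product takes the same place in the trimer, did not pass. Each stretch is the part of the promoter window that lies before the annotated start of the gene, read 5′ to 3′ on the gene's strand, and capitals mark the 1 CCAAT box in them, with neither stretch holding GGGCGG on either strand. The Lamb1 stretch is chr12:31265043-31265145 and the Lamb2 stretch chr9:108479612-108479846, both on the plus strand; the first overlaps Gm32899, a long noncoding RNA gene.
Lamb1: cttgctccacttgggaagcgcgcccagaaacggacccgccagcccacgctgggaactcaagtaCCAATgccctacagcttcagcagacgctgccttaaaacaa
Lamb2: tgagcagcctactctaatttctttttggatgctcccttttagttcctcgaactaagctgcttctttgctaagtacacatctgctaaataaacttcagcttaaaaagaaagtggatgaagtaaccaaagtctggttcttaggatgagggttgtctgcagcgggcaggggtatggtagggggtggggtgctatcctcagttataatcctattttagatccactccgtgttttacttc

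The promoters of Lamb1 and Lamb2 differed in base composition. In the 250 bases before the start that the table gives, Lamb1 had 62.0% G and C with 14 CpG sites and Lamb2 had 43.6% with 3, where the median over 32851 windows was 52.4% with 6 CpG sites. The Lamb1 window held 2 copies of GGGCGG, a box found in 32.7% of windows, and 1 of CCAAT, found in 33.8%. The Lamb2 window held neither. Lamb3, also a beta chain gene and not called, had 2 windows with 58.8% and 61.2% G and C. They had 2 and 3 CpG sites and held neither box. Of the 250 bases, 103 in the Lamb1 window and 235 in the Lamb2 window lie before the annotated start of the gene. Those 103 bases of Lamb1 had 58.3% G and C with 6 CpG sites and held neither copy of GGGCGG. The 235 of Lamb2 had 43.0% with 3. Each motif was searched on both strands. The window of Lama5, the gene of an alpha chain found in most epithelial basement membranes, was richest in G and C of the members' windows read here at 72.4%, with 19 CpG sites and 4 copies of GGGCGG. That of Lama2 held 0 CpG sites and 0 copies of either box at 47.2% G and C. TATAAA, present in 12.4% of windows, was in none of the members' windows read here. CAGGTG, the box that Snail and Zeb factors bind and that 17.2% of windows hold, stood in those of Lama5 (2 copies) and of 1 of the 2 Lamb3 starts (1 copy). These matches describe letters in a window only.

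Among the alpha chains Lama1 rose. It encodes the alpha chain of laminin-111, the trimer of early embryonic and nascent tubule basement membranes. Its log2 values were 11.39 and 11.26 in GFP-high cells, and 9.18 and 9.64 in GFP-negative cells. Both GFP-high arrays stood above both GFP-negative ones, and the GFP-negative pair was the more spread (SD 0.326 against 0.091, n = 2 each). The log2 difference was 1.92 (SE 0.173, 95% interval 1.51 to 2.32, adjusted p = 2.82e-04), larger than that of 99.4% of genes. Within kidney B, the letter that both fractions share, the difference was 2.08. Without high A it was 1.85 with adjusted p = 0.0535, and it passed with any other array left out. Markers of the loop of Henle (7 of 7), of epithelium (5 of 6) and of the ureteric bud and collecting duct (4 of 6) were higher in GFP-high cells too, where 8.08% of all genes were. Those of the proximal tubule (6 of 6) and of podocytes (4 of 4 measured) were lower, where 11.2% of all genes were. Of 6 urothelial markers 1 was higher and 1 lower. The part of these cell types in the result was not tested.

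Lama4 encodes the alpha chain of laminin-411 and laminin-421, made mainly by endothelial and mesenchymal cells. Its log2 values were 5.42 and 5.64 in GFP-high cells, against 9.22 and 9.49 in GFP-negative cells. The gap between the fractions was far wider than the spread within either (SD 0.159 and 0.194, n = 2 each). The difference between fractions, -3.82 (SE 0.151, 95% interval -4.18 to -3.47, adjusted p = 1.67e-05) on the log2 scale, was the lowest of the 9 genes, and 0.128% of all genes had a lower one. It was -3.58 within kidney B. All 11 stromal markers and 6 of 8 endothelial markers were lower in GFP-high cells too, where 11.2% of all genes were. The part of these cell types in the result was not tested.

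Lama2 encodes the alpha chain of laminin-211, known from muscle, nerve sheath and the mesangium of the glomerulus. GFP-high cells gave log2 values of 4.49 and 4.75, and GFP-negative cells gave 8.03 and 8.15. The fractions did not overlap, and the log2 difference was -3.47 (SE 0.140, 95% interval -3.80 to -3.14, adjusted p = 1.69e-05), or -3.28 within kidney B. Genes of 990 olfactory receptors served as a guide to background, and their 95th percentile stood at log2 values of 4.47 on high A, 4.32 on high B, 4.10 on negative B and 4.13 on negative D. Lama2 exceeded it by 0.019 and 0.430 in GFP-high cells, so its level there is close to the lower end of the array's range and the fold may be understated. Both Lama2 and Lama4 passed with any 1 array left out, with differences from -3.60 to -3.34 and from -3.96 to -3.69.

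Lama5 encodes the alpha chain of laminin-511 and laminin-521, the forms of mature tubules, ureteric epithelium and the glomerular basement membrane. Its log2 values were 8.68 and 8.55 in GFP-high cells and 8.55 and 8.17 in GFP-negative cells. The lower GFP-high value and the higher GFP-negative value, both from kidney B, differed by 0.006. The log2 difference was 0.259 (SE 0.159, adjusted p = 0.342), with a 95% interval from -0.115 to 0.633 that holds 0 and, at its upper end, a 1.55-fold rise. That of Lama1 exceeded it by 1.66 on the log2 scale, a difference of differences that was not tested.

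Lama3, an alpha chain gene of stratified epithelia and urothelium, gave 4.53 and 4.34 in GFP-high cells and 4.46 and 4.44 in GFP-negative cells. These log2 values exceeded the background level of their array by 0.024 to 0.364. The log2 difference was -0.013 (adjusted p = 0.964), and at this level a difference may not be detectable.

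Of the beta chain genes, Lamb1 rose. Its product is the beta chain of most embryonic laminins. Log2 values were 11.12 and 11.02 in GFP-high cells and 10.23 and 10.26 in GFP-negative cells. The groups stood apart, with SDs of 0.067 and 0.019 (n = 2 each). Lamb1 thus had a log2 difference of 0.824 (SE 0.121, 95% interval 0.539 to 1.11, adjusted p = 0.00290), and 0.790 within kidney B. It kept its size with 1 array left out, at 0.776 to 0.872, while adjusted p was 0.0630 without high A, 0.0574 without negative B, 0.0512 without negative D and 0.0499 without high B.

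Lamb2 encodes the beta chain that replaces the product of Lamb1 in the maturing glomerular basement membrane. GFP-high cells gave log2 values of 8.53 and 8.78 and GFP-negative cells 8.90 and 8.76, so the groups overlapped, and the log2 difference was -0.175 (SE 0.140, 95% interval -0.506 to 0.155, adjusted p = 0.478). Relative to Lamb1 on the same array, Lamb2 was 0.999 lower on the log2 scale in GFP-high than in GFP-negative cells, without overlap of the arrays; this relative change was not tested. Lamb3, a beta chain gene of stratified epithelia, had values of 4.55, 4.47, 4.40 and 4.54 on the 4 arrays, at most 0.413 above background, and a difference of 0.040 (adjusted p = 0.877).

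Lamc1 encodes the gamma chain shared by nearly all laminins. Its log2 values were 11.06 and 11.30 in GFP-high cells and 10.31 and 10.38 in GFP-negative cells. The lowest GFP-high value lay above the highest GFP-negative one. The log2 difference was 0.830 (SE 0.136, 95% interval 0.509 to 1.15, adjusted p = 0.00495), and 0.989 within kidney B. It ranged from 0.707 to 0.954 with 1 array left out, and adjusted p was 0.0717 without high B, 0.0904 and 0.0709 without negative B and negative D, and 0.0486 without high A. Lamb1 and Lamc1 changed by nearly the same amount, their log2 differences being 0.006 apart, and Lama1 rose by 1.09 more than Lamc1, neither of which was tested.

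Lamc3, a further gamma chain gene outside the 9, gave 5.01 and 5.09 in GFP-high cells, against 5.51 and 5.28 in GFP-negative cells (log2 difference -0.350, adjusted p = 0.130), and did not pass.

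The chain levels were then set against 13 known trimers. A chain was counted as present in a fraction where both arrays exceeded the background level. By this rule all 13 had every chain present in both fractions, so presence alone did not separate them. In GFP-high cells Lama2 on high A and Lama3 on high B exceeded that level by only 0.019 and 0.024 on the log2 scale. Chains present in a mixed fraction need not lie in the same cell, so these counts do not show that a trimer was made. With the 99th percentile of olfactory receptor genes in place of the 95th, GFP-high cells held every chain of 8 trimers and GFP-negative cells of 11, with 8 shared. Under that level Lama3 was missing in both fractions, which removed laminin-311 and laminin-321, and Lama2 was missing in GFP-high cells, which removed laminin-211, laminin-221 and laminin-213. Both levels left laminin-111, laminin-121, laminin-411, laminin-421, laminin-423, laminin-511, laminin-521 and laminin-523 in both fractions. Laminin-423 and laminin-523 rest on Lamc3, which on high A exceeded the 99th percentile by only 0.005 on the log2 scale.

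The trimers differed in the direction of their chains. Laminin-111 was the 1 trimer of the 13 whose 3 chains all passed the test as higher (log2 differences 1.92, 0.824 and 0.830). All 3 differences were positive for laminin-511 too (0.259, 0.824 and 0.830), but that of Lama5 did not pass. For laminin-211 and laminin-411 the alpha chain fell by 3.47 and 3.82 while the beta and gamma chains rose. Of the chains of laminin-521 only Lamc1 passed. RNA levels set no amount of trimer. The level of 1 probe set was not ranked against that of another, and where a pair of genes is set together on an array, only the change of their gap between the fractions was used.

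**Figure D2:**
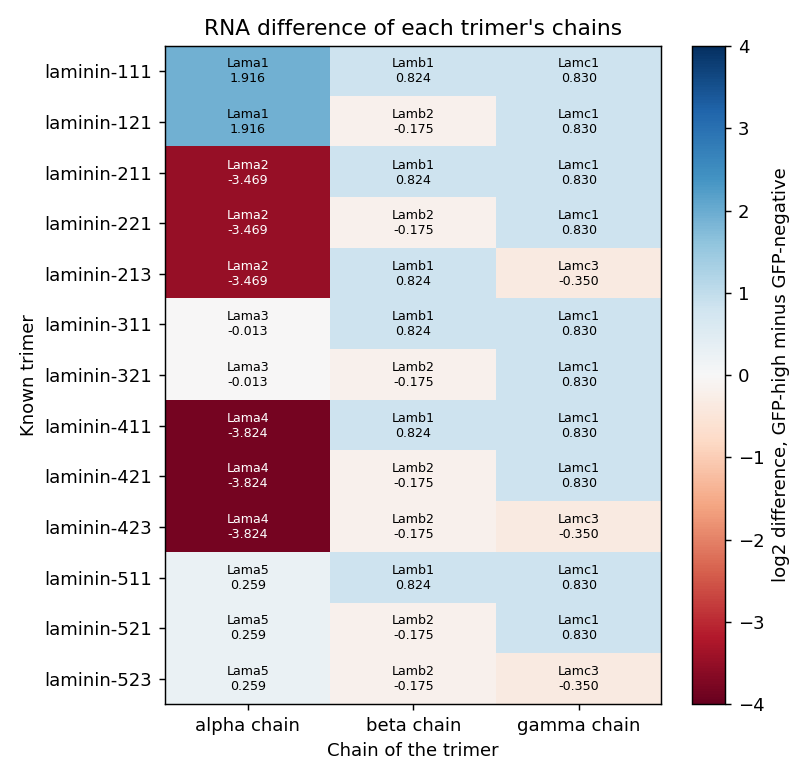
The 13 laminin trimers by row and their alpha, beta and gamma chains by column, coloured and labelled by the log2 difference of the chain's RNA, GFP-high minus GFP-negative. The alpha column spans -3.824 (Lama4) to 1.916 (Lama1), while the beta and gamma columns stay between -0.350 (Lamc3) and 0.830 (Lamc1).

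Of 7 genes for laminin-binding integrin subunits 3 were higher, 0 lower and 4 did not pass, where 8.08% of all genes were higher and 11.2% lower. The median log2 difference was 0.638, against 0.051 for all genes. That median is the value of Itga1, whose product binds collagen and laminin, at 9.55 and 9.33 against 8.55 and 9.05 (adjusted p = 0.0555). Itga1 passed with the kidney letters as a block (0.0135), with arrays centred on their median (0.0243) and with eBayes trend and robust on (0.0196). It also passed with the filter on dim genes at the median level (0.0461), and only just with that at the 25th percentile, where adjusted p rounds to 0.05. With the array number as a block its adjusted p was 0.0961. Itgb4, whose product pairs with that of Itga6 in the laminin receptor of hemidesmosomes, had log2 values of 7.48 and 7.19 in GFP-high cells, against 5.66 and 5.70 in GFP-negative cells, a 3.13-fold difference (adjusted p = 2.22e-04) that passed with any 1 array left out. Itga6, the alpha subunit of a main laminin receptor of epithelia, had 11.58 and 11.34 against 10.03 and 10.35 (2.41-fold, adjusted p = 0.00133). Itga2, whose product binds collagen and laminin, had 7.524 and 6.997 against 6.14 in both GFP-negative arrays (2.17-fold, adjusted p = 0.00492). Itga6 had adjusted p = 0.0753 without high A and 0.0527 without high B, and Itga2 had 0.0535 without high A and 0.105 and 0.0999 without negative B and negative D. Itga3, the alpha subunit that podocytes and ureteric epithelium use for laminin, stood at 8.37 and 8.35 against 8.91 and 8.38 and did not pass (adjusted p = 0.364), nor did Itgb1, the common beta subunit, at 10.04 and 10.20 against 10.41 and 10.20 (adjusted p = 0.451).

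Of 5 laminin receptors that are not integrins, 1 was higher, 1 lower and 3 did not pass, against 19.2% of all genes called either way, with a median log2 difference of 0.189. Dag1, which encodes dystroglycan, had log2 values of 11.71 and 11.77 against 11.01 and 10.97, a 1.68-fold rise (adjusted p = 0.00440) that did not pass with any 1 array left out (adjusted p 0.0630 to 0.0672) although the difference stayed between 0.713 and 0.778. Mcam, an adhesion molecule of vessels and smooth muscle that binds the Lama4 product, was 3.67-fold lower at 7.07 and 7.32 against 9.26 and 8.89 (adjusted p = 2.61e-04), as Lama4 was. Bcam, which binds the Lama5 product, was at 10.41 and 10.57 against 10.56 and 10.33 and did not pass, as Lama5 did not.

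Dystroglycan binds laminin through a sugar chain that a series of enzymes builds. Of 13 genes of this series 7 were measured, of which 1 was higher, 0 were lower and 6 did not pass (median log2 difference 0.297), so the list held no larger share of calls than the 19.2% over all genes. The higher one was Large2, which extends the laminin-binding end of the chain, with log2 values of 9.48 and 9.22 against 8.42 and 8.51 (1.85-fold, adjusted p = 0.00386). Its adjusted p was 0.0718 without high A and 0.0834 and 0.0632 without negative B and negative D. Pomgnt2, an enzyme of an earlier step, was at 7.01 and 7.06 against 6.26 and 6.73 and did not pass (adjusted p = 0.0749), but had 0.0488 after quantile scaling and 0.0282 with arrays centred on their median.

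Of 12 partners of laminin in basement membranes 11 were measured, with 1 higher, 2 lower and 8 not passing (19.2% of all genes called either way) and a median log2 difference of -0.012. Nid1, which encodes the nidogen that ties the Lamc1 product to collagen IV, went the opposite way to Lamc1. Its log2 values were 6.50 and 6.93 in GFP-high cells, against 10.28 and 10.36 in GFP-negative cells, a 12.2-fold decrease (log2 difference -3.61, SE 0.166, adjusted p = 1.94e-05). Relative to Lamc1 on the same array the drop was -4.44 on the log2 scale. Col15a1, a collagen of the outer face of vessel and muscle basement membranes, was 6.81-fold lower at 5.47 and 5.36 against 8.10 and 8.26 (adjusted p = 2.10e-05), and both genes passed with any 1 array left out. Its relative Col18a1, the endostatin precursor of epithelial and vessel membranes, was 2.25-fold higher at 9.55 and 9.47 against 8.18 and 8.51 (adjusted p = 0.00146), but had adjusted p = 0.0793 and 0.0667 without high A and high B. The collagen IV genes Col4a1 (log2 difference -0.012) and Col4a2 (0.016), which form the common network, did not pass.

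Proteases that cut laminin chains were lower in 3 of 4 cases, where 11.2% of all genes were lower, with 0 higher, 1 not passing and a median log2 difference of -0.730. Of these 3 calls that of Bmp1 was lost in 6 of 14 alternatives. Mmp2, a gelatinase of stroma, was 10.2-fold lower at 8.28 and 8.33 against 11.61 and 11.71 (adjusted p = 1.47e-05). Mmp14, the membrane protease that activates the Mmp2 product, was 2.01-fold lower at 9.04 and 9.13 against 10.00 and 10.17 (adjusted p = 0.00148), with adjusted p = 0.05998 and 0.05004 without high A and high B. Bmp1, a procollagen proteinase that also trims laminin chains, was at 9.63 and 9.76 against 10.14 and 10.17 (adjusted p = 0.0418). It did not pass with any 1 array left out (adjusted p 0.107 to 0.214), with the array number as a block (0.0905) or with arrays centred on their median (0.0942). Nid1, Col15a1 and Mmp2 were lower where the stromal marker list was lower, and the part of stromal cells was not tested.

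Netrins share their N-terminal domains with laminin short arms. Of 6, 5 were measured, with 1 higher, 1 lower and 3 not passing (median log2 difference -0.019; 19.2% of all genes called either way). Ntn1, a guidance cue that also acts in tubule growth, was 2.03-fold higher at 8.17 and 8.49 against 7.03 and 7.59 (adjusted p = 0.0130), with adjusted p = 0.140 and 0.201 without high A and high B and 0.132 without negative B. Ntn3 was 1.61-fold lower at 4.88 and 4.95 against 5.71 and 5.50 (adjusted p = 0.0100), and did not pass with any 1 array left out (adjusted p 0.0556 to 0.130) or with the mean of its probe sets (0.103). Of 4 measured hemidesmosome partners, 0 were higher or lower, where 19.2% of all genes were called either way. Col17a1, the transmembrane collagen of hemidesmosomes, stood at 4.63 and 4.22 against 4.41 and 4.52. These values are close to the background level and below it on high B, so a difference may not be detectable.

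**Figure D3:**
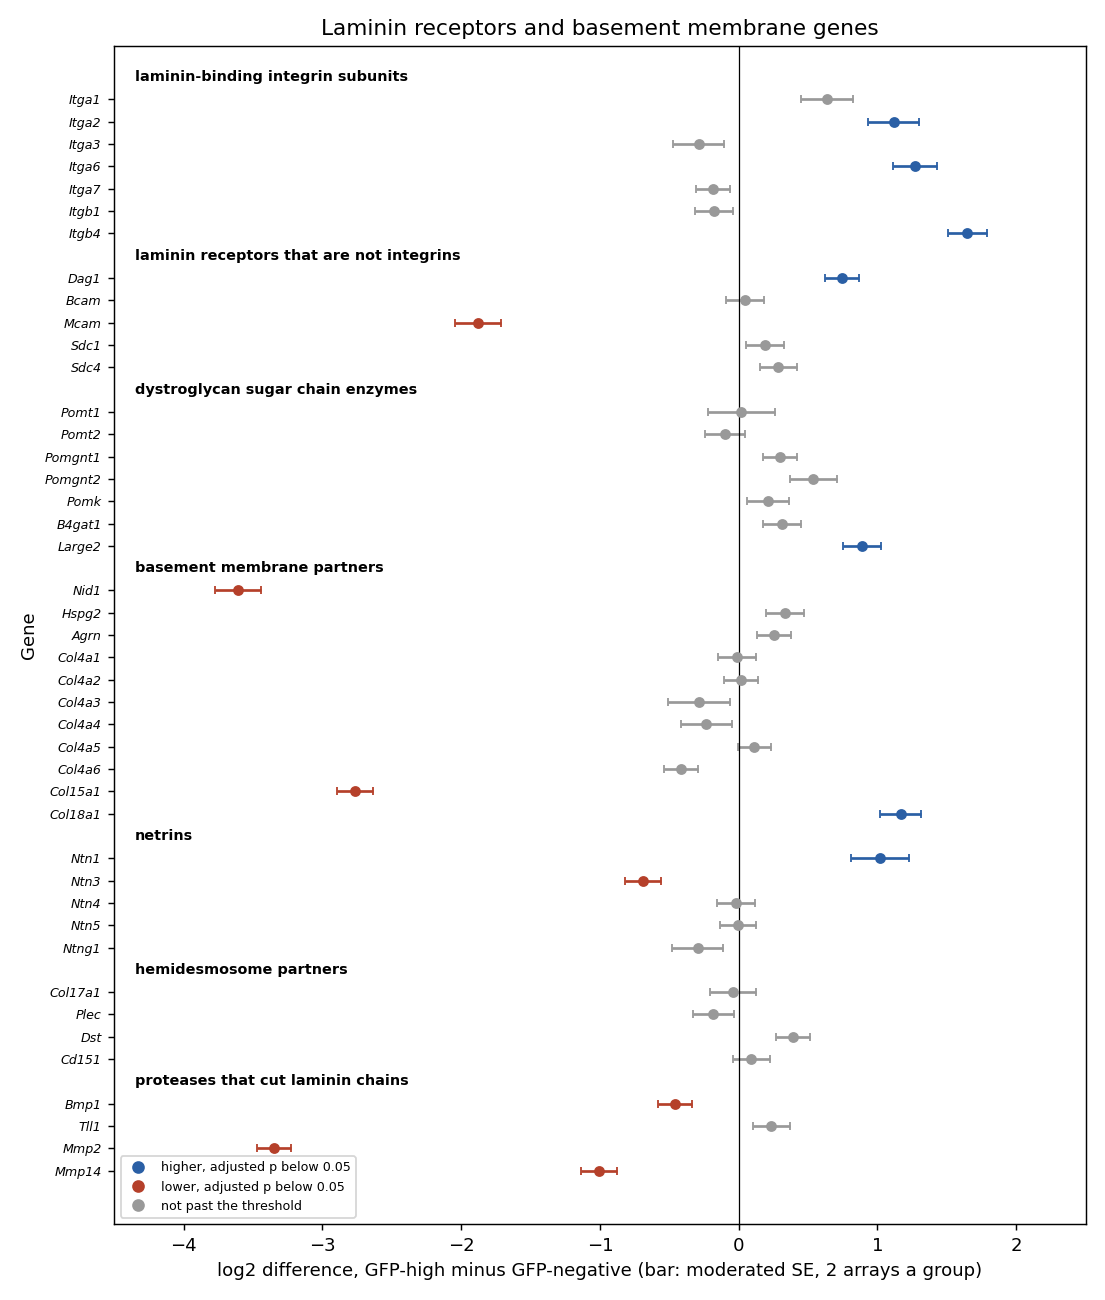
Log2 difference, GFP-high minus GFP-negative, of each measured gene in the 7 lists of laminin receptors and basement membrane genes, with the moderated standard error as the bar and colour for the test. The lowest points are Nid1 at -3.61, Mmp2 at -3.35 and Col15a1 at -2.77, and the highest is Itgb4 at 1.65.

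Markers of several cell types differed between the fractions as well. Beside the counts below, the shares over all genes were 8.08% higher, 11.2% lower and 19.2% either way. Stromal markers, 11 of 11 of which were lower, had a log2 summed level of 10.10 and 10.17 in GFP-high cells and 13.19 and 13.29 in GFP-negative cells. Of 8 endothelial markers 6 were lower and 0 higher, with a log2 summed level of 7.20 and 7.16 against 8.98 and 9.47. In GFP-high cells Cdh5, the cadherin of endothelium, stood at 4.54 and 4.44 against 7.04 and 7.61, close to the background level, and Tek, an angiopoietin receptor, at 3.51 on both arrays, below it. Smooth muscle and mesangial markers were lower in 4 of 5 cases, and their log2 summed level spread most within a fraction, at 8.70 and 10.29 against 12.80 and 11.77. The 4 podocyte markers measured were all lower, and so were all 8 of the cap mesenchyme and all 6 of the proximal tubule. In the other direction, 7 of 7 loop of Henle markers and 5 of 6 epithelial markers were higher, Slc12a1, the cotransporter of the thick ascending limb, standing at 10.39 ± 0.023 against 5.31 ± 0.013 (SD, n = 2 each). Of 6 markers of the ureteric bud and collecting duct 4 were higher and 0 lower, with a log2 summed level of 9.99 and 9.70 against 8.23 and 8.14. Among them were Wnt7b, a signal of the collecting duct stalk (11.7-fold, adjusted p = 1.49e-05), and Aqp2, its water channel (2.59-fold, adjusted p = 0.00244). Of 6 urothelial markers, 1 was higher (the uroplakin gene Upk1a, 7.10-fold, adjusted p = 1.88e-05), 1 lower (Upk1b, 1.77-fold, adjusted p = 0.00749) and 4 did not pass. The log2 summed level of these 6 was 9.74 and 9.88 against 7.94 and 7.96. Upk1a alone stood at 9.505 and 9.692 in GFP-high cells and so made up most of the sum there, and the median log2 difference of the list was -0.060. Macrophage markers passed in 1 of 7 cases (Cd68, lower), no larger a share than the 19.2% over all genes, and the 2 glial markers measured did not pass. The part of these cell types in the laminin differences was not tested, and in such mixed samples fewer cells of a type and less RNA per cell cannot be told apart.

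**Figure D4:**
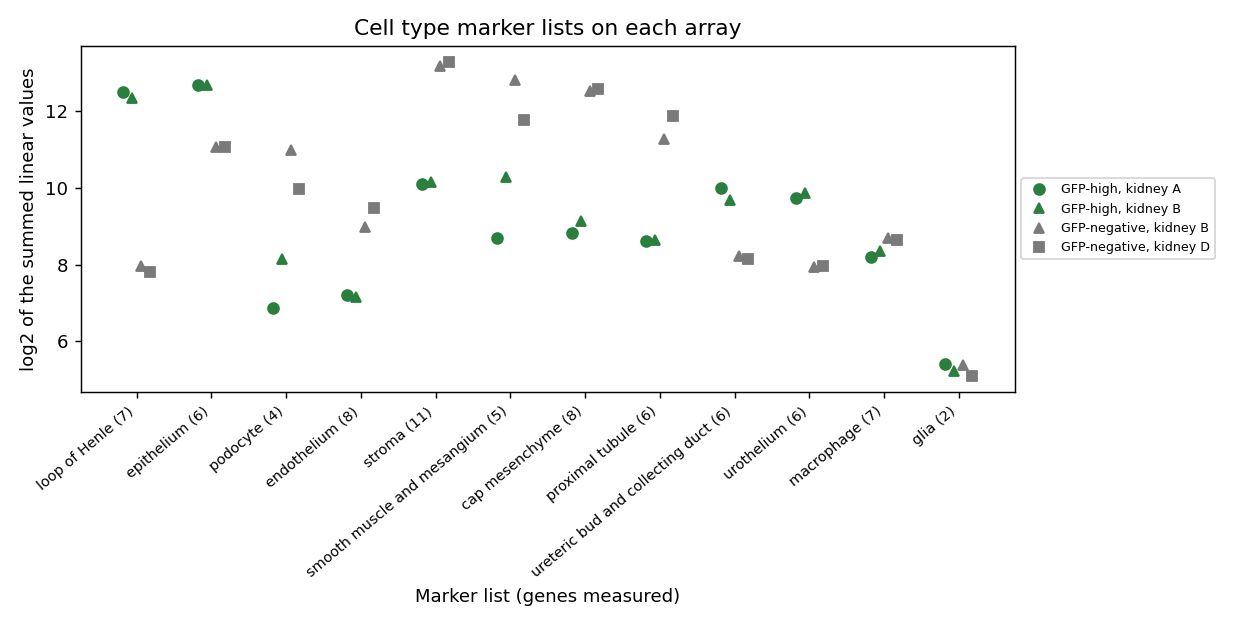
Log2 of the summed linear expression values of each marker list on each of the 4 arrays, with the number of measured genes in brackets. The stromal list stands at 10.10 and 10.17 in GFP-high cells and at 13.19 and 13.29 in GFP-negative cells, and the loop of Henle list at 12.51 and 12.35 against 7.96 and 7.82.

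The genes whose 4 array values, centred on their mean, lay nearest to those of Lama1 were Cyfip2, Crybg1 and Slc27a6, at Euclidean distances of 0.073, 0.083 and 0.092 on the log2 scale. For Lama4 they were Ldb2 (0.101), Aspn (0.135) and Ecm1 (0.141). With 4 arrays in 2 groups such likeness is common, since 109 genes lay within 0.5 of Lama1 and 46 within 0.5 of Lama4.

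Lgr5, which the sort selects, stood at 10.43 and 10.34 in GFP-high cells, against 6.39 and 6.31 in GFP-negative cells, a 16.4-fold difference in the direction the labels give. The array medians over 35556 probe sets lay between 5.08 and 5.24. With each array centred on its median, calls over all genes split into 2122 higher and 1889 lower, against 1520 and 2100 as reported, while the 5 called laminin chains kept their direction and call.

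**Figure D5:**
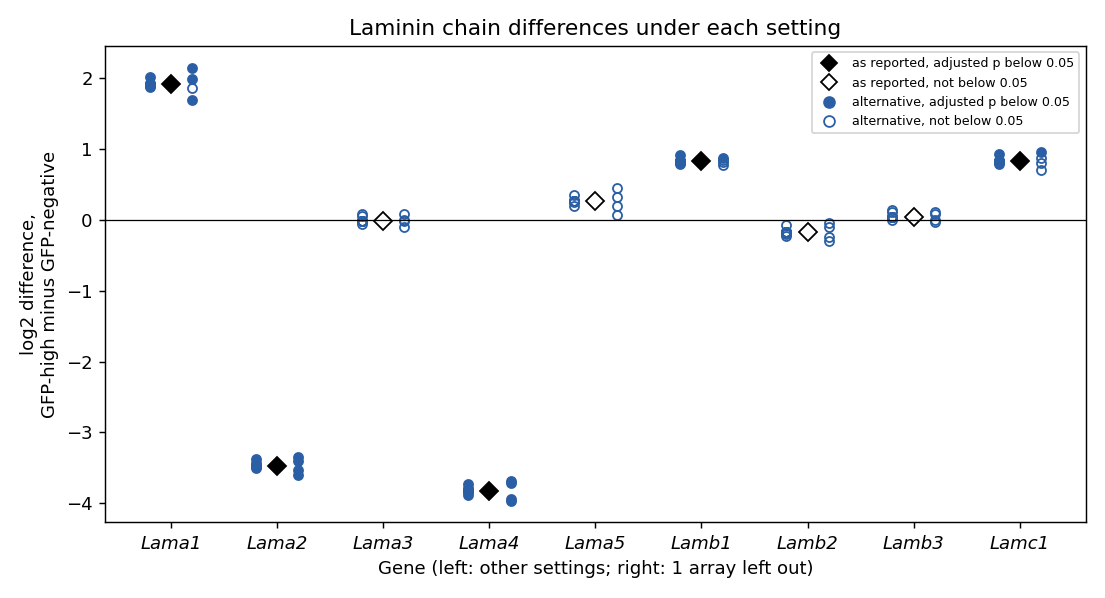
Log2 difference, GFP-high minus GFP-negative, of the 9 laminin chain genes as reported and under each alternative, with filled marks for adjusted p below 0.05. Open marks for Lama1, Lamb1 and Lamc1 appear only among the fits without 1 array, and Lama2 (-3.598 to -3.340) and Lama4 (-3.961 to -3.687) stay filled throughout.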

How the data were processed

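Total RNA of 4 sorted samples was hybridised to Affymetrix arrays after biotin labelling with a whole-transcript kit, per the labels' protocols. All differences start from log2 expression values that the authors deposited. Background correction, probe set summary and scaling between arrays were not stated in the labels. No column was left unused (0). Arrays have no read depth, and their number limits the precision.

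Genes were named through the platform annotation. A single gene was named for 21218 of 35556 probe sets, more than 1 for 1881 and none for 12457, and the highest-mean probe set stood for each of 18820 genes. RefSeq gene identifiers matched for 21185 of the single-gene probe sets, and 0 symbols were updated. Differences were fitted with limma 3.58.1 (lmFit, eBayes; R 4.3.3) across all genes, group as the only term, two-sided, with Benjamini-Hochberg adjustment at 0.05 (2 residual degrees of freedom, prior 5.11). SE is moderated, and intervals are 95% from the same fit. As a check of the code, the fit was run on simulated data with independent noise. That run does not cover scatter shared between arrays. Marker levels were summed as 2 to the power of the log2 values.

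Groups came from the descriptions, which number the arrays 1 and 2 in each fraction; kidney letters cross these numbers. Deviations from the group means of same-numbered arrays correlated at -0.198 over genes, and those of the kidney B arrays at 0.198, which with 2 arrays a group are mirror images. The reported fit uses neither as pairs, and both were run as blocks.

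The members, lists, background level and rules were chosen with earlier results of these data known. Named are the 9 members, Lgr5, up to 6 passing genes per pathway list and up to 2 others, up to 3 markers per list, and 3 nearest genes for the members with the largest rise and fall. Pairs of chains compared within arrays were chosen after their values were seen, as were Pomgnt2, Cd68, Col17a1, Cdh5, Tek, Wnt7b, Aqp2, Upk1a, Upk1b and Itga1 as examples. In all, 14 alternatives were run on the differences.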

Additional observations from a re-analysis of the deposited data

How the results depend on the processing

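The 9 chains kept their calls, 5 of 9, in each of the 10 alternatives that use all 4 arrays: both blocks, quantile, median and cyclic loess scaling, both filters on dim genes, every probe set tested, the mean of probe sets, and eBayes with trend and robust on. With the array number as a replicate block 2959 genes were called over all genes, 5 chains and 13 genes of the other laminin lists (14 as reported), and with the kidney letters crossed 4102, 5 and 15; among genes named here the block ended the call of Bmp1 alone. Over all genes 3620 were called as reported and 2385 after leaving out the dimmer genes, those under the median level, where fewer were tested. Leaving out 1 array left 1 residual degree of freedom, with the lone array assumed to vary like the others, and gave 3 to 4 called chains, 1123 to 1749 genes and 5 to 9 genes of the other lists. Of 741 differences of 54 genes under alternatives, 0 reversed a call, 37 lost it (34 of them with 1 array left out) and 9 gained it. Lama3 and Lamb3, which were not called, changed sign without passing. The filter at the median level left out Lama3, Lamb3 and Lamc3. The 99th percentile of olfactory receptor genes gave 8 trimers with every chain present for GFP-high cells and 11 for GFP-negative cells, against 13 in each under the other 3 settings. Signal close to background limits Lama2 and Lamc3 in GFP-high cells, and Lama3 and Lamb3 throughout.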
